A study of Mus musculus with 7 samples.

Results

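Nfil3 encodes a basic leucine zipper (bZIP) transcription factor, also called E4BP4, and is described here as a single gene in splenic B cells with and without Batf. It was taken as the 1 row named Nfil3 (ENSMUSG00000056749) among the 752 genes of the deposited table. Splenic B cells from 3 Batf KO mice and 4 wild-type (WT) mice were purified with magnetic columns. All were on the C57BL/6J background. Both groups were cultured for 6 h with LPS, a bacterial TLR4 ligand, at 20 µg/mL and IL-4 at 20 ng/mL, and total RNA was sequenced with 1 library per mouse. The Batf KO label does not say which part of Batf is disrupted, and neither the sex nor the age of the mice is stated. Each culture had both stimuli and no unstimulated library was analysed, so these values give the level of Nfil3 after activation and not its induction by IL-4.

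NFIL3 binds DNA as a dimer through its basic region and leucine zipper, at sites shared with the PAR bZIP activators DBP, HLF and TEF, and mostly represses transcription there. In lymphoid cells it is known for its part in the development of natural killer and innate lymphoid cells. In B cells it is known as a gene induced by IL-4 and needed for normal switching to IgE. BATF is itself a bZIP factor of the AP-1 family that pairs with JUN proteins, and the series title places Nfil3 among the genes it controls for class switching.

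On GRCm38, Nfil3 lies on the minus strand of chromosome 13, from 52967209 to 52981073. GENCODE M21 gives it 1 transcript with 2 exons and an intron of 11839 bases. Exon 1 (213 bases) is untranslated, and exon 2 (1813 bases) holds the whole coding sequence of 1386 bases. No other annotated gene overlaps this span, so reads there have no second gene to be assigned to. The bases before its start are shown because the comparison asks about control by an AP-1 factor. They are from RefSeq (GRCm38.p6, minus strand, chr13:52981074-52981289), end at the base before the GENCODE start and hold no exon base. Capitals mark the matches to GGGCGG, the GC box bound by SP1 family factors, on either strand.

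Nfil3 upstream: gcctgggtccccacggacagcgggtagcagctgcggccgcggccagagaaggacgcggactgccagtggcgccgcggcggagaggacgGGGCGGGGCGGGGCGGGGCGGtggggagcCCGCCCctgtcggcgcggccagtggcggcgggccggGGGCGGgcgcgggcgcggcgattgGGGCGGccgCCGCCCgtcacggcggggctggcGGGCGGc

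The stretch of 216 bases has a GC content of 84.7% and 9 GC box matches, some of which overlap. In the 300-base window of the same table, from 250 bases before to 50 after the RefSeq start, GC content was 81.7%, against a median of 52.7% over 27025 promoter windows. Searched on both strands, this window held no match to the AP-1 letters TGANTCA (in 7.93% of all windows), the full CRE TGACGTCA (1.88%) or the NFIL3 and PAR bZIP core TTANNTAA (6.08%). It held 1 match to TGACG, the start of the CRE, which 21.0% of all windows hold. GC boxes are in 35.9% of all windows. Among genes of the deposited table they are in 63.3% of 256 windows of genes lower in Batf KO. For genes higher in Batf KO they are in 64.3% of 286 windows, so the presence of a GC box is not particular to Nfil3. The shares count windows with at least 1 match and do not bear on the number of 9 at Nfil3. All of these are matches of letters in a short window and say nothing about binding of any factor there or elsewhere.

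No library was a near copy of another, with a chi-square per gene of 16.4 to 48.4 between libraries of 1 genotype. The WT libraries were closest in the pairs 1 with 2 (17.9) and 3 with 4 (20.2). All 72 reads of the Y-linked gene Usp9y were in Batf KO replicate 1. Without that library the log2 fold change of Nfil3, described next, was -1.75.

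Nfil3 was lower in Batf KO B cells in every library. It was measured at 78.6, 75.4 and 72.9 CPM in Batf KO replicates 1 to 3, against 253, 247, 246 and 255 CPM in WT replicates 1 to 4. CPM is the count of reads scaled to a common library total. The groups did not overlap, as in 94.7% of the genes of the table, and the highest Batf KO library lay 167 CPM below the lowest WT library. Means were 75.6 ± 2.83 CPM in Batf KO (SD, n = 3) and 250 ± 4.74 CPM in WT (SD, n = 4), so that 30.2% of the WT level was left. The log2 fold change, Batf KO over WT, was -1.73 (SE 0.06, adjusted p = 2.11e-07 in edgeR's quasi-likelihood test over the 752 genes). The exact two-sided permutation test gave p = 0.0286, the smallest it can give with 3 against 4 libraries. In bulk RNA, fewer cells with the transcript and less of it per cell cannot be told apart.

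**Figure D1:**
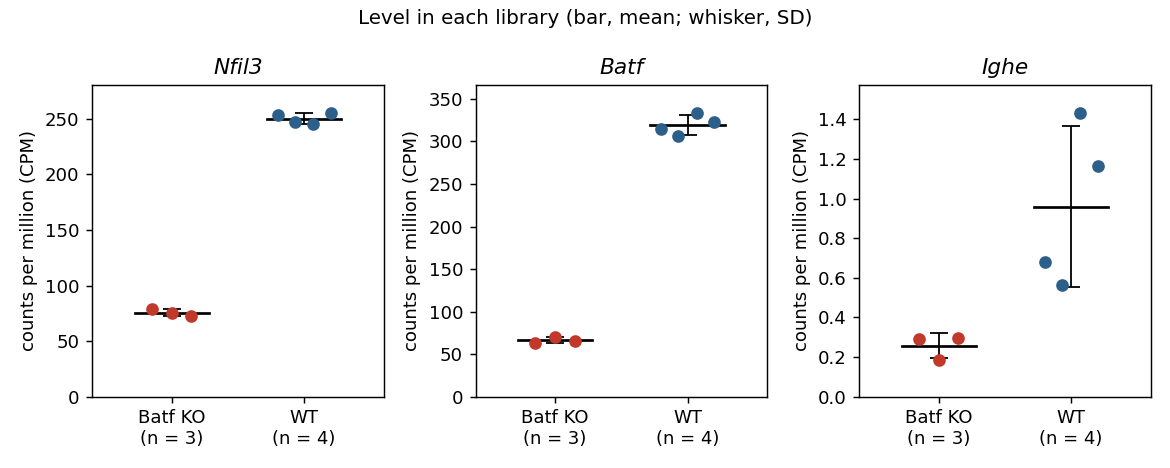
CPM of Nfil3, Batf and Ighe in each library (points, Batf KO left, WT right), with the mean as a bar and the SD as whiskers; each panel has its own axis from 0. Nfil3 sits at 72.9 to 78.6 CPM in Batf KO and at 246 to 255 CPM in WT, while Ighe stays below 1.5 CPM throughout.

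The table is selected on this same contrast. It holds the 752 genes with an FDR under 0.05 of the 19734 that the authors tested (3.81%), of which 368 were lower in Batf KO (1.86%) and 384 higher (1.95%). All 752 (100%) also passed the edgeR test over the table, but they had been selected on these same libraries. The edgeR test could be run only on the 752 listed genes. Its p-values were also adjusted as for 19734 tests, with every unlisted gene counted as having a larger p. This left 171 lower (0.867%) and 139 higher (0.704%), and the adjusted edgeR p of Nfil3 was 5.52e-06. Adjusted p-values given below over 19734 genes are of this kind. In the authors' deposited table, Nfil3 has the log2 fold change -1.73 and an FDR of 3.06e-75, and ranks 3 by p-value. By the edgeR p computed here it ranked 2, behind Batf.

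The fall of Nfil3 was also large for a well expressed gene of the table. Of 509 genes with a mean of at least 10 CPM, 243 were lower, and Nfil3 ranked 8 by log2 fold change. The genes that fell further were Insm1 (-2.81), Lat2 (-2.71), Batf (-2.26), Lrrk2 (-2.16), Slamf6 (-2.02), Plbd1 (a 3.99-fold fall) and Rab43 (-1.93). Its mean CPM ranked 211 of the table in Batf KO and 49 in WT. Per kilobase of annotated exon, which allows levels of different genes to be set side by side, it stood at 37.3 ± 1.40 CPM per kb in Batf KO (SD, n = 3) and 124 ± 2.34 CPM per kb in WT (SD, n = 4). That was rank 117 in Batf KO and rank 20 in WT among 742 genes with an annotated length.

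**Figure D2:**
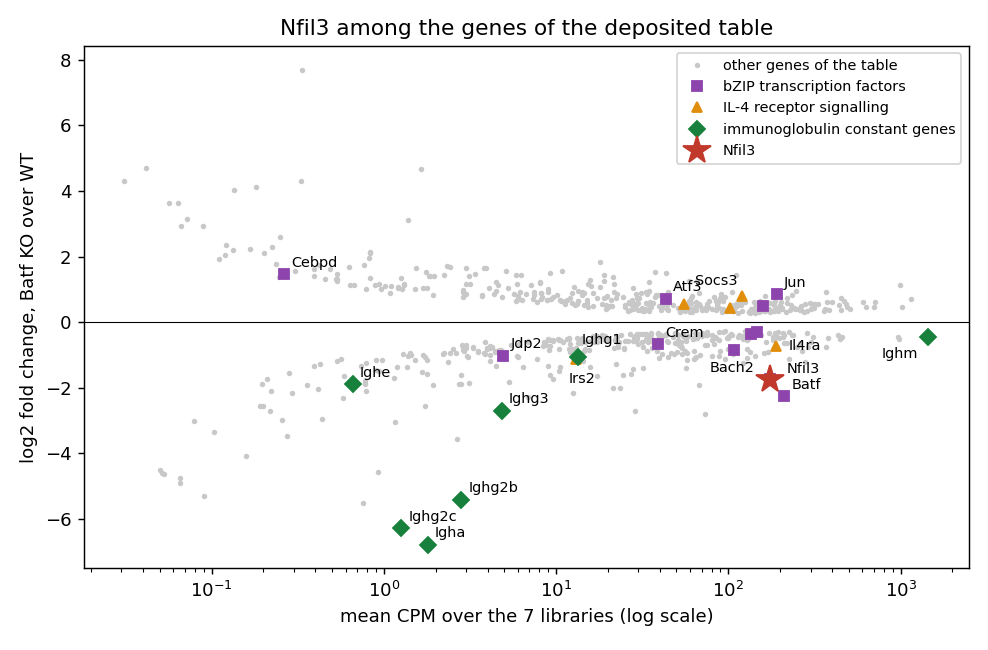
Log2 fold change, Batf KO over WT, against mean CPM (log axis) for the 752 genes of the deposited table, with the bZIP, IL-4 receptor and immunoglobulin constant lists marked. Nfil3 (star, -1.73) lies beside Batf (-2.26) among the well expressed genes; the empty band around 0 is where the authors' threshold removed genes.

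Mice of 1 genotype differed little in Nfil3. The coefficient of variation was 3.74% in Batf KO and 1.89% in WT. Counting error alone gives 2.03% to 2.41% for the 1726 to 2423 reads of the Batf KO libraries and 0.954% to 1.25% for the 6350 to 10981 reads of the WT libraries. A chi-square test of read counts against library size gave 5.74 on 2 degrees of freedom in Batf KO (p = 0.0566) and 9.22 on 3 in WT (p = 0.0265). The spread in WT was thus above counting error, and the excess in Batf KO did not pass the test. The pooled SD of log2(CPM + 0.5) within genotypes was 0.0399, against a median of 0.125 over the 509 genes, and 13 of these genes had a smaller one. Selection by p-value favours genes with a small spread, so this rank describes Nfil3 within the table only.

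**Figure D3:**
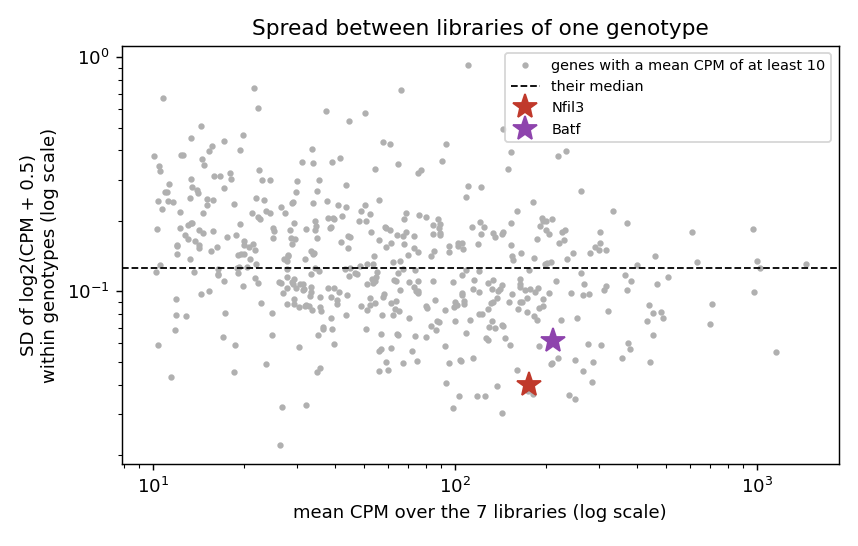
SD of log2(CPM + 0.5) within genotypes against mean CPM for the 509 genes with a mean of at least 10 CPM (both axes log), with the median of these genes as a dashed line. Nfil3 lies at 0.0399 and Batf at 0.0613, both under the median of 0.125.

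Batf, the targeted gene, was at 63.4, 70.3 and 65.8 CPM in Batf KO replicates 1 to 3, against 315, 307, 333 and 322 CPM in WT replicates 1 to 4. The groups did not overlap, as in 94.7% of the genes of the table, and 20.8% of the WT level was left. From which Batf exons these reads came cannot be read from gene counts. The log2 fold change of Batf was -2.26 (SE 0.07, edgeR adjusted p = 1.11e-07), against -1.73 for Nfil3. The ratio of Nfil3 CPM to Batf CPM was 1.24, 1.07 and 1.11 in the Batf KO libraries, against 0.804, 0.805, 0.737 and 0.791 in WT. Every Batf KO ratio lay above every WT ratio, and the ratio was 1.45 times as high in Batf KO. The exact two-sided permutation p was 0.0286, the smallest possible, and 0.0571 adjusted over the 2 ratios tested. Any gene that fell less than the targeted Batf has a higher ratio in Batf KO. Of the 509 genes with a mean of at least 10 CPM, only Insm1 (-2.81) and Lat2 (-2.71) fell further than Batf. The direction of the ratio is thus not particular to Nfil3.

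Within a genotype, the order of the libraries in Nfil3 was not their order in Batf. Batf KO replicate 1 had the highest Nfil3 (78.6 CPM) and the lowest Batf (63.4 CPM). WT replicate 3 had the lowest Nfil3 (246 CPM) and the highest Batf (333 CPM). In contrast, WT replicate 4 was above the WT mean in both genes, and WT replicate 2 was below it in both. The Nfil3 spread in Batf KO did not pass the test against counting error, so the order there may be read noise. The libraries form separate clusters by genotype, of 3 and 4, so no correlation is given.

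Ighe, the constant gene of IgE, was carried by few reads. Batf KO replicates 1 to 3 had 9, 5 and 7 reads, or 0.292, 0.186 and 0.296 CPM. WT replicates 1 to 4 had 27, 17, 64 and 29 reads, or 0.677, 0.565, 1.43 and 1.17 CPM. All Batf KO libraries lay below all WT libraries, and 94.7% of the genes of the table had no overlap of the groups. Reads per library size in Batf KO were 0.263 of those in WT (exact 95% counting interval 0.158 to 0.418, counting error only). The edgeR log2 fold change was -1.89 (SE 0.44, adjusted p = 0.00353 over the table and 0.0926 over 19734 genes), and the exact permutation p was 0.0571. The constant genes are similar in sequence, and how shared reads were counted is not stated. Counts of a constant gene do not show whether the reads came from switched cells, so switching to IgE was not measured.

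Relative to Nfil3, Ighe values of the genotypes overlapped. There were 3.71, 2.46 and 4.06 Ighe reads per 1000 Nfil3 reads in Batf KO replicates 1 to 3, against 2.67, 2.29, 5.83 and 4.57 in WT replicates 1 to 4. The mean log2 ratio, with 0.1 CPM added to Ighe, was 0.23 higher in Batf KO (exact two-sided permutation p = 0.543), and with 0.5 CPM added it was 0.82 higher (exact permutation p = 0.0571). An addition of 0.5 CPM is larger than Ighe itself in each Batf KO library and smaller than it in each WT library. From the summed reads, which give deeper libraries more weight, the ratio pointed the other way, at 0.865 of that in WT (95% counting interval 0.519 to 1.37). The WT libraries themselves differed more than counting error allows: the 95% intervals were 1.33 to 3.66 in replicate 2 and 4.49 to 7.45 in replicate 3. WT replicates 3 and 4, one of the closer pairs named above, both lay above replicates 1 and 2, and the part of this in the result was not tested. Nfil3 levels in replicates 2 and 3, at 247 and 246 CPM, were nearly equal.

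**Figure D4:**
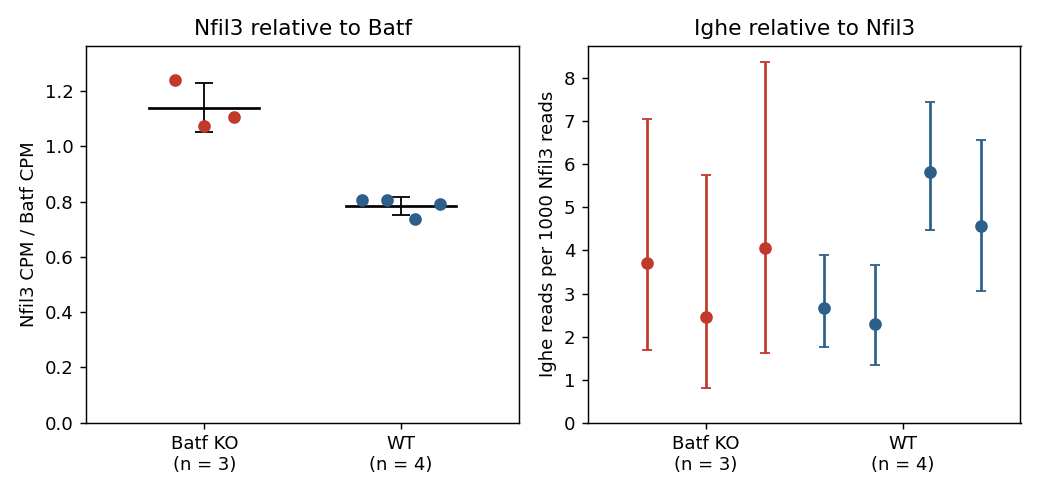
Left, Nfil3 CPM divided by Batf CPM in each library, with mean and SD; right, Ighe reads per 1000 Nfil3 reads, with exact 95% counting intervals. The Batf KO libraries lie above the WT libraries on the left (1.07 to 1.24 against 0.737 to 0.805), and the groups overlap on the right.

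Of the 8 immunoglobulin constant genes, 7 were listed and all 7 were lower, against 1.86% of all tested genes. Their median log2 fold change was -2.70, against 0.31 over the table. The largest falls rest on few reads in Batf KO replicates 1 to 3. Igha had 2, 0 and 0 reads there, Ighg2c 0, 1 and 1, and Ighg2b 4, 3 and 2. The abundant Ighm had a log2 fold change of -0.44, with means of 1202 CPM in Batf KO and 1634 CPM in WT. Over 19734 genes 5 of the 7 passed the edgeR test, and Ighm (adjusted p = 0.0568) and Ighe (0.0926) did not.

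Genes of the IL-4 receptor pathway went both ways. Of 27 members, 5 were listed (18.5%, against 3.81% of all tested genes), 2 lower and 3 higher. Il4ra, the receptor chain that binds IL-4, was at 137, 136 and 143 CPM in Batf KO replicates 1 to 3, against 234, 225, 215 and 241 CPM in WT replicates 1 to 4, a log2 fold change of -0.72 (SE 0.06). Irs2, an adaptor recruited to the activated receptor, fell by 1.13 on the log2 scale (SE 0.15). The feedback inhibitor Socs3 (0.81), the repressor Bcl6 (0.56) and the kinase Pim2 (0.42) were higher in Batf KO by these log2 fold changes. Over all 19734 genes, Il4ra, Irs2, Socs3 and Bcl6 passed the edgeR test, and Pim2 did not (adjusted p = 0.143).

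Among bZIP factors, 12 of 54 were listed (22.2%, against 3.81% of all tested genes), 7 lower and 5 higher, with a median log2 fold change of -0.34 against 0.31 over the table. Nfil3 and Batf were the lower members with the greatest change. The others that fell were the AP-1 repressor Jdp2 (-1.02), the plasma cell repressor Bach2 (-0.86), the CREB relative Crem (-0.67), the unfolded protein response factor Atf6 (-0.38) and Creb1 (-0.31). Jun (0.86), Atf3 (0.71), Jund (0.50) and Cebpd (1.46) were among the higher members, the last at under 0.5 CPM in every library. Adjusted over 19734 genes, 6 of the lower members passed, all but Creb1, and Jun alone of the higher ones. Cebpd is a factor of myeloid cells as well.

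The PAR bZIP genes Dbp, Hlf and Tef, whose sites NFIL3 shares, were outside the table and have no value here. Of 23 circadian clock genes, 2 were listed (8.70%, against 3.81% of all tested genes). Bhlhe40, a repressor of clock genes, was at 55.7, 62.1 and 53.9 CPM in Batf KO, against 137, 120, 104 and 134 CPM in WT (log2 fold change -1.11, SE 0.11). Its relative Bhlhe41 was higher in Batf KO (0.94, SE 0.30), with 16.3 CPM in WT replicate 4 and 6.25 to 8.83 CPM in the other WT libraries. Over 19734 genes its edgeR adjusted p was 0.325.

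Of 15 genes reported as regulated by or with NFIL3 in other cells, 2 were listed (13.3%, against 3.81% of all tested genes). Id2, a regulator of innate lymphocyte development, was at 20.6, 21.0 and 16.9 CPM in Batf KO, against 27.6, 34.2, 28.8 and 25.8 CPM in WT. Its log2 fold change was -0.58 (SE 0.13), and over 19734 genes its edgeR adjusted p was 0.0712. Il10, an anti-inflammatory cytokine gene, was higher in Batf KO (1.83, SE 0.19) and passed there (adjusted p = 0.00221). The other genes of the series title were Wnt10a, a Wnt ligand gene, which was 2.83-fold higher, and Mir155hg, the host gene of miR-155, which was 1.37-fold lower and did not pass over 19734 genes (adjusted p = 0.0630, edgeR; exact permutation p = 0.0571).

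The genes most like Nfil3 were found from the root mean square difference between log2(CPM + 0.5) profiles over the 7 libraries, each centred on its own WT mean, among genes with a mean of at least 10 CPM. The 5 closest of 508 were AI504432 (0.175), the small GTPase gene Rab43 (0.182), the SLAM family receptor gene Slamf6 (0.212), Plbd1 (0.217) and the metalloprotease gene Adam19 (0.220), against a median difference of 1.34. Rab43 was at 22.7, 26.7 and 28.1 CPM in Batf KO, against 99.9, 107, 92.8 and 93.8 CPM in WT. Slamf6 was at 7.68, 6.83 and 8.83 CPM in Batf KO, against 30.4, 27.6, 34.4 and 33.9 CPM in WT.

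With genes from a mean of 1 CPM admitted, Hlx, a homeobox gene, was the closest (0.132) and Tmem154 the fifth (0.213), and 3 of the 5 stayed. The likeness is mostly one of the size of the fall, since WT values of each gene were centred on 0.

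**Figure D5:**
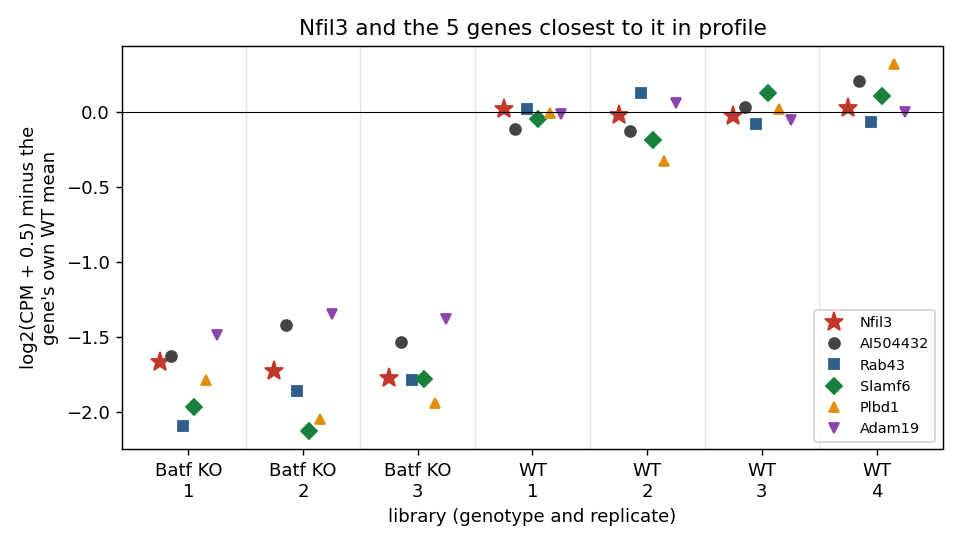
Log2(CPM + 0.5) minus each gene's own WT mean, by library, for Nfil3 (star) and the 5 genes closest to it in profile. All lie well below 0 in the 3 Batf KO libraries and near 0 in the 4 WT libraries, where Plbd1 spreads more than Nfil3.

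Of the 6 protein-coding genes that start within 500 kb of the Nfil3 start, 1 was listed, where 3.81% of all tested genes were. This was Auh (chromosome 13, 52835119 to 52929681, minus strand), which encodes a mitochondrial enzyme of leucine breakdown and starts 51.4 kb away. It was at 40.1, 36.3 and 37.5 CPM in Batf KO replicates 1 to 3, against 76.3, 81.8, 89.0 and 82.0 CPM in WT replicates 1 to 4. The groups did not overlap, as in 94.7% of the genes of the table. The log2 fold change was -1.12 (SE 0.08, edgeR adjusted p = 1.73e-05). Syk, Diras2, Ror2, Sptlc1 and Msx2 were outside the table.

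Nfil3 is also expressed by other spleen cells, whose markers can be read only where they passed the authors' threshold. Of 22 T cell, natural killer and innate lymphoid markers, Cd8b1 (higher) and Tbx21 (lower) were listed (9.09%, against 3.81% of all tested genes). Their summed level was 5.70 to 7.88 CPM in Batf KO and 2.81 to 12.6 CPM in WT. Of 21 myeloid, basophil and mast cell markers, Zbtb46 was listed (4.76%). It was at 73.6 to 89.6 CPM in Batf KO and 47.4 to 65.6 CPM in WT. Of 14 erythroid, platelet and stromal markers, Pf4 was listed (7.14%). It was at 0.760 to 1.04 CPM in Batf KO and 0.281 to 0.627 CPM in WT. Of 12 B cell markers, 4 were listed (33.3%, against 3.81% of all tested genes). These were Ms4a1, Blk, Cd72 and Fcmr, and all 4 were higher. Their summed level was 1377 to 1469.7 CPM in Batf KO and 857 to 1056 CPM in WT. Over 19734 genes, Ms4a1 and Blk passed the edgeR test, and Cd72 (adjusted p = 0.106) and Fcmr (0.171) did not. The other markers, such as Cd79a, Cd3e and Lyz2, were not analysed here, and the part of other cells in the Nfil3 result was not tested.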

How the data were processed

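Each library's raw read counts per gene, and the CPM the authors computed from them, came from 1 deposited table. Per the file headers, it also gives the authors' log2 fold change, log2 mean CPM, likelihood ratio (a score) and p-value with FDR. Per the submitters' processing notes, mm10, HTSeq 0.5.3p7, TopHat2 2.0.6 and edgeR 3.03 were used, with no roles named. Annotation, strand setting and treatment of shared reads: not given in the sources used here. FDR times the rank by p-value, divided by p, gives 19734 tested genes, as the median over genes whose FDR no other gene shares. The highest FDR listed is 0.0499, so unlisted genes are not analysed here.

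Effective library sizes, from count over CPM, ran from 23675459 to 30844920 in Batf KO and from 24891094 to 44728937 in WT. Counts of all 752 genes were tested by edgeR 4.0.16 (quasi-likelihood, R 4.3.3), two-sided, on these sizes, with Benjamini-Hochberg adjustment and no further filter. SE is the log2 fold change over the square root of F. The step was tested on simulated data. DESeq2 1.42.0 and limma 3.58.1 (pseudocounts 0.5 and 2 CPM) were alternatives. Permutation tests were exact. The Ighe to Nfil3 ratio had 0.1 CPM added to Ighe. Positions are from GENCODE M21 (742 of 752 identifiers matched).

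Named were Nfil3, Batf, Ighe, the title genes, listed members of the gene lists, the 5 closest profiles and genes within 500 kb, and some of these are not reported here. Members and lists were chosen with earlier results of these data known. Mice are taken as replicates by their labels. The design text also speaks of 2 replicates per sample, which is not explained in the sources used here.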

Additional observations from a re-analysis of the deposited data

Results flagged for a closer look

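Of 47 sets of 4 WT values examined (45 named genes and 2 ratios), 1 held a sample far from the others, where chance gives about 2.35. Creb1 was at 172 CPM in WT replicate 4 and at 154 to 156 CPM in the other WT libraries. The cause was not tested. The Nfil3 values held no such sample. Groups of 3 Batf KO libraries were not examined in this way.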

How the results depend on the processing

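Under 15 alternatives the Nfil3 log2 fold change stayed between -1.81 and -1.70, and the highest adjusted p was 9.96e-06 (edgeR, without Batf KO replicate 2). Batf stayed between -2.34 and -2.23. None of the 45 named genes reversed or lost its call in edgeR with a library left out, but the table is selected on these libraries, and 16 did not pass over 19734 genes. Ighe was -1.89 there and did not pass (adjusted p = 0.0926). It was -2.07 to -1.60 with a library left out, was removed by the filters, and was -0.38 in limma with 2 CPM added, which compresses low values. Over 19734 genes the called members were 7 of 12 bZIP genes, 1 clock gene, 1 NFIL3-regulated gene, 2 B cell markers, 1 T cell, NK and ILC marker and 0 myeloid or platelet markers. With a mean of at least 10 CPM, 2 immunoglobulin constant genes and 0 T cell, NK and ILC or platelet genes were called. With at least 1 CPM, 0 platelet genes were called. The listed members of these groups that were no longer called lay under the filter and so were not tested. The log2 Nfil3 to Batf ratio difference was 0.54, with a range of 0.48 to 0.58 when libraries were left out in turn. The smallest possible p is then 0.0667 or 0.1, so none can pass. That of Ighe to Nfil3 was 0.23, with a range of 0.04 to 0.44, and 0.82 with 0.5 CPM added in place of 0.1 (exact permutation p = 0.0571). That amount is above the Ighe level of each Batf KO library and below that of each WT library. Ighe rests on 5 to 64 reads per library. No paired analysis was possible because mouse numbers differ between the groups.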
